A study of Homo sapiens with 9 samples.

Results

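S2-028 and S2-007 are sublines of SUIT-2, a cell line established from a human pancreatic ductal adenocarcinoma (PDAC), and the 3 RNA-seq libraries of S2-028 were compared here with the 3 of S2-007. These were 6 of the 9 libraries of the series, and the other 3 came from the subline S2-020, whose levels are given beside some genes. S2-020 did not enter the main test, only the scaling of CPM and an alternative fit of all 9 libraries. The study chose the lines for the place of maspin, a serpin encoded by SERPINB5, which it saw in the nucleus and cytoplasm of S2-007 (panMaspin) and mainly in the cytoplasm of S2-028 (cytMaspin). Both lines were untreated, carried no introduced gene or knockdown, and were grown under the same conditions, as plated cells in DMEM with inactivated fetal bovine serum. Each line stands for itself only, so differences due to maspin and other differences between these sublines cannot be told apart. The labels do not say whether the libraries of a line came from separate cultures, and the p-values therefore measure the spread between these libraries, which may be technical. Genes of ErbB signaling, axon guidance, the histones, the UGT1A family and MHC class II are left out.

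Libraries of S2-007 held 71040887 to 75136834 counts in total and those of S2-028 held 60328748 to 61800271. All libraries carried the epithelial markers EPCAM, CDH1, KRT8, KRT18 and KRT19, whose summed level was 9320 to 9820 CPM (counts scaled to a common library size after TMM normalization) in S2-007 and 14400 to 16900 CPM in S2-028. The summed level of 5 fibroblast markers stayed between 2.77 and 5.56 CPM. That of 3 endothelial markers stayed between 5.4 and 7.57 CPM, mostly PECAM1 (means of 6.18 CPM in S2-007 and 6.01 CPM in S2-028). The sums of 4 acinar and 4 endocrine markers stayed below 1 CPM, with AMY2A and SST at or under 3 counts in all 6 libraries. The 5 immune markers summed to 338 to 411 CPM in S2-007 and 13.6 to 14.6 CPM in S2-028. This sum was almost all LYZ, the lysozyme gene that gut and airway epithelium also use, and CD68, while the leukocyte marker PTPRC was at most 0.407 CPM and the T-cell marker CD3E at most 0.361 CPM in any library.

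Pancreatic duct cells and their tumors can take on traits of neighbouring digestive epithelia. The transcription factors HNF4A and CDX2 drive genes of the gut and liver, such as brush-border enzymes and their scaffold. Other programs in PDAC include a basal or squamous one, epithelial-mesenchymal transition (EMT), in which epithelial junctions are given up, and the remodelling of matrix by secreted proteases.

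A differentially expressed gene (DEG) had an adjusted p below 0.05 in the quasi-likelihood F-test of edgeR, with Benjamini-Hochberg adjustment over 26371 genes tested, and changed by 1.5-fold or more. Of the genes tested, 2697 rose in S2-028 (10.2%) and 2161 fell (8.19%), which is 18.4% in either direction. The change was over 4-fold for 577 of the genes that rose and 496 of those that fell, and over 16-fold for 105 and 123 genes. The 3 libraries of one line did not overlap those of the other for 43.3% of the genes tested and for 97.9% of the DEGs. In bulk RNA, a lower share of cells that use a gene and less of its RNA per cell cannot be told apart, and this holds for every level below.

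The largest rises among genes that reached a mean of 10 CPM in S2-028 were those of ZPLD1 and VGLL1. ZPLD1, which encodes a membrane protein with a zona pellucida-like domain (NCBI Gene 131368, GRCh38.p14, chr3:102385144-102479841), was at 0.214, 0.0806 and 0.0272 CPM in the S2-007 libraries and at 95.0, 90.2 and 77.3 CPM in those of S2-028. Its log2 fold change was 9.64 ± 0.20 (SE, n = 3 libraries per line, edgeR adjusted p = 5.30e-19). VGLL1, a cofactor of the TEAD transcription factors (NCBI Gene 51442, chrX:136532215-136556799), was at 0.0535, 0 and 0.0272 CPM against 18.8, 20.6 and 21.0 CPM, a log2 fold change of 9.46 ± 0.27 (adjusted p = 8.73e-17). Genes of this group, and those of the largest falls below, were picked among DEGs whose libraries did not overlap between the lines. VGLL1 had no count in the S2-020 libraries.

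Further genes in this group encode an inhibitor of metalloproteinases, a translation factor and lipid carriers. TIMP3, which blocks metalloproteinases and stays bound to the matrix, was at 0.361, 0.323 and 0.761 CPM in S2-007 and at 79.8, 92.1 and 63.8 CPM in S2-028 (log2 fold change 7.35 ± 0.19 SE, adjusted p = 1.35e-17). EEF1A2, the elongation factor isoform of neurons and muscle, was at 3.48, 3.67 and 3.19 CPM against 295.3, 284.2 and 264.2 CPM (6.35 ± 0.09 on the log2 scale, adjusted p = 1.70e-21). The libraries of a line lay close together for EEF1A2 and far from the other line. ABCA12, a lipid transporter of keratinocytes, rose by 6.23 ± 0.17 and CRABP2, a carrier of retinoic acid, by 5.99 ± 0.19 on the log2 scale. RGS4, which shortens G protein signals, rose by 7.76 ± 0.19, the ubiquitin ligase gene NEURL1 by 6.15 ± 0.15, RIPOR3 by 7.99 ± 0.15 and PALM3 by 7.60 ± 0.20. The remaining genes of this group share sequence with relatives, so their level is less certain. CST1, a secreted inhibitor of cysteine proteases, went from a mean of 0.745 ± 0.098 to 178.3 ± 15.7 CPM (SD, n = 3), and 36.1% of its 31-base words also occur in transcripts of other genes. MT1L, a metallothionein pseudogene, shares all of its words with other genes and rose by 7.73 ± 0.31 on the log2 scale.

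Among genes with a mean of at least 10 CPM in S2-007, the largest falls included digestive epithelial genes, the collagenase gene MMP1 and a secreted protease inhibitor. CLRN3, of the clarin family of membrane proteins (NCBI Gene 119467, chr10:127877841-127892941), was at 21.0, 20.4 and 23.5 CPM in S2-007 and had no count in any S2-028 library. Against a floor of 3 counts per library it was at least 448-fold lower in S2-028, a floor that covers counting error only. LGALS4, a galectin of the gut epithelium, went from 207.0 ± 6.10 CPM (SD, n = 3) to 0.322, 0.0940 and 0.0656 CPM in the S2-028 libraries (log2 fold change -10.31 ± 0.16 SE, adjusted p = 1.32e-20). ANPEP, aminopeptidase N of the brush border, was at 138.7, 144.6 and 155.0 CPM against 0.129, 0 and 0.426 CPM (-9.63 ± 0.23, adjusted p = 4.93e-18). That the lines did not overlap for these 3 genes was a condition of their choice.

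MMP1, the interstitial collagenase (NCBI Gene 4312, chr11:102789919-102798160), was at 4628, 4996 and 5501 CPM in the S2-007 libraries and at 6.59, 8.08 and 6.28 CPM in those of S2-028. This was a log2 fold change of -9.49 ± 0.10 (SE, adjusted p = 1.71e-23). SERPINE2, an inhibitor of thrombin and plasminogen activators, was at 422.4, 510.4 and 562.7 CPM against 2.01, 1.68 and 1.18 CPM (-8.25 ± 0.14, adjusted p = 2.41e-20). No library of S2-028 came near any of S2-007 for these secreted proteins. PPP1R1B (DARPP-32), an inhibitor of protein phosphatase 1, fell by 8.93 ± 0.15 on the log2 scale, and ANXA10, an annexin of gastric epithelium, by 8.64 ± 0.28. DHRS9, a retinol dehydrogenase, fell by 8.02 ± 0.20. ADH1C, an alcohol dehydrogenase that shares 33.1% of its words with other genes, fell by 8.62 ± 0.24. TMEM176A and TMEM176B, membrane protein genes whose 5′ ends overlap on chromosome 7, fell together. Their mean levels were 19.8 ± 0.97 and 26.9 ± 1.13 CPM in S2-007 against 0.0528 ± 0.048 and 0.0104 ± 0.018 CPM in S2-028 (SD, n = 3). The long noncoding RNA LINC02381, on chromosome 12 beyond the HOXC genes, fell by 8.99 ± 0.28 on the log2 scale, and 24% of its exon sequence overlaps another gene.

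**Figure D1:**
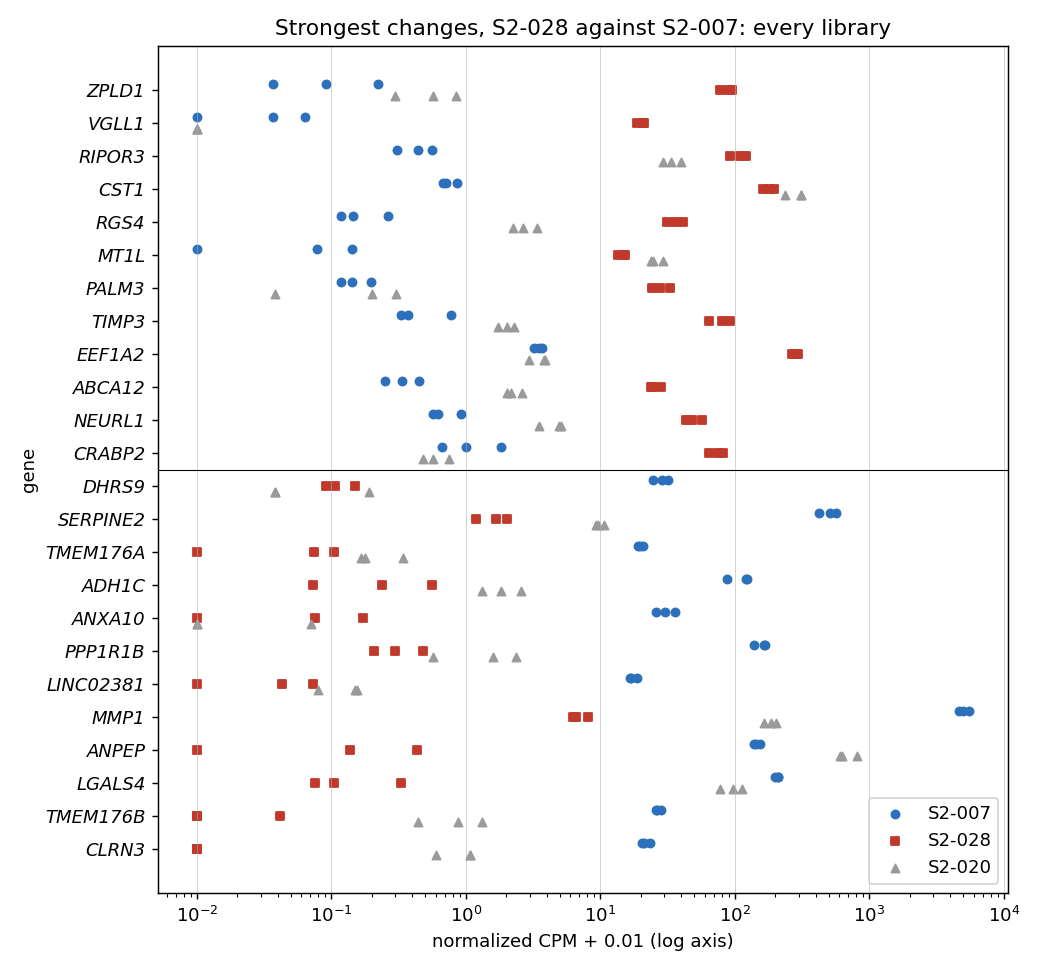
Normalized CPM of every library on a log axis (with 0.01 added so that 0 can be drawn) for the 12 genes with the largest rise (above the line) and the 12 with the largest fall (below it) in S2-028. Circles are S2-007, squares S2-028 and triangles S2-020, with 3 libraries each. Genes were picked only if their S2-007 and S2-028 libraries did not overlap, so squares and circles stand apart in all 24. S2-020 had a mean of at least 10 CPM in 3 of the 12 genes that rose and 3 of the 12 that fell.

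Only a few DEGs were at the floor of 3 counts in every library of one line and at a mean of at least 1 CPM in the other. In S2-007, 2 such genes were at the floor (0.00758% of the genes tested), and both lie on the X chromosome. Leaving out any 1 of the S2-007 libraries gave 4. GPC3, an oncofetal glypican of the cell surface, had 2 reads in all S2-007 libraries and 655 in those of S2-028, a ratio of 391 (95% exact counting interval 108 to 3231). ESX1, a homeobox gene of placenta and testis, had 2 against 458 reads, a ratio of 273 (75.2 to 2262). In S2-028, 8 genes were at the floor (0.0303%), and 13 without replicate 1 of S2-028. They included CLRN3, TMEM176B with 2 reads against 5985 and MS4A8, a tetraspanning membrane protein gene, with 2 against 1756, a ratio of 736 (204 to 6085). DUOXA2, the maturation factor of the oxidase DUOX2, had no read in S2-028 and was at least 48-fold lower there, chosen for naming after its values were seen. MAGED4 and MAGED4B met the same definition but share 99.8% and 96.4% of their words with other genes, mainly each other, so their reads cannot be assigned with certainty.

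Promoter windows of the named genes were read for short motifs of factors of digestive identity (HNF1, HNF4, CDX), of TEAD, the partner of VGLL1, and of AP-1. RefSeq windows on GRCh38.p14 were at hand for 10 genes that rose and 13 that fell, and each window holds the 250 bases before the start that RefSeq's promoter table uses. For ZPLD1, RIPOR3 and SERPINE2 that start lies inside the gene's full interval, so their windows are not upstream of its outer end. The HNF1 core GTTAAT, on either strand, was in 3 of the 13 windows of genes that fell (CLRN3, MS4A8, ANXA10) and in 0 of the 10 of genes that rose, against 6.23% of 35116 windows genome-wide. The CDX letters TTTATGG were in 2 of the 13 windows, CLRN3 and ANXA10, against 2.3% of all, and directly adjoin an HNF1 core in both. Both motifs are rich in A and T, and the genome-wide shares were not matched for base content. G and C made up 44% of the CLRN3 window, 42% of MS4A8 and 31.2% of ANXA10. Windows without an HNF1 core ranged from 35.6% (ADH1C) to 74% (ANPEP). The TEAD letters GGAATG were in VGLL1, ZPLD1 and TMEM176B, against 11.9% of all windows, while the HNF4 core AAAGTCC and the AP-1 letters TGANTCA, found in 3.2% and 6.57% of all windows, were in none of the 23. The windows below, 5′ to 3′ along each gene's strand, are the ones whose matches are discussed, with the matches in capitals. A match is a description of letters and not evidence of binding.
CLRN3, chr10:127892942-127893191, minus strand: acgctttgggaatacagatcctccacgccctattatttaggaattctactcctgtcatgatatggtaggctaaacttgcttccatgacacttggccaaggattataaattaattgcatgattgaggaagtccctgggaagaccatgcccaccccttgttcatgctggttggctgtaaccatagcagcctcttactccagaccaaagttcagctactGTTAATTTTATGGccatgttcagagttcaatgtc
MS4A8, chr11:60699362-60699611, plus strand: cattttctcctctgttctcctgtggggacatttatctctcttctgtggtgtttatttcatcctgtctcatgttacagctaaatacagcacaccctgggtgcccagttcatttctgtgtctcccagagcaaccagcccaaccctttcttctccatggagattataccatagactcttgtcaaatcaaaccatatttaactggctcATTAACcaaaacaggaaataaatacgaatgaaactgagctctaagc
ANXA10, chr4:168092287-168092536, plus strand: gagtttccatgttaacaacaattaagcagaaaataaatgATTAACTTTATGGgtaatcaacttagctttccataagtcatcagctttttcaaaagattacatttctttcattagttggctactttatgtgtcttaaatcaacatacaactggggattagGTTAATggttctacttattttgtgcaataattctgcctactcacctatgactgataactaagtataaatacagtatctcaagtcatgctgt
VGLL1, chrX:136531965-136532214, plus strand: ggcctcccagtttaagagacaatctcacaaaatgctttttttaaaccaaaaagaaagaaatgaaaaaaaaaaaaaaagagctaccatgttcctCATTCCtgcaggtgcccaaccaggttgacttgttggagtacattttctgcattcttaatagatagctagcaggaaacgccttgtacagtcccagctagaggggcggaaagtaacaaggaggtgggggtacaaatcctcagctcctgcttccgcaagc
TMEM176B, chr7:150801361-150801610, minus strand: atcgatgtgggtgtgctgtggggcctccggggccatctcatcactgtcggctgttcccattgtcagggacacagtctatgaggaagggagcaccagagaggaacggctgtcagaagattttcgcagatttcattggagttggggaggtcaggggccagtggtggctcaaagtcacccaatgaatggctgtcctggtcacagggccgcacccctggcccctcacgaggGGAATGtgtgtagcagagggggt
ZPLD1, chr3:102434765-102435014, plus strand: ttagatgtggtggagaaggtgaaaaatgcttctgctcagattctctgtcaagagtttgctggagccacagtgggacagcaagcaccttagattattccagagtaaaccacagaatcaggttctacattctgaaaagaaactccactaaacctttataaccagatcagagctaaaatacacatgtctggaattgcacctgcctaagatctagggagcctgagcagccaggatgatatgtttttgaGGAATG

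To place these genes among functional groups, DEGs were counted in 39 gene lists. The counts and medians describe the lists beside all genes tested, whose median log2 fold change was 0.00, and carry no test of a list. Shares in the lists stand beside the 10.2% that rose and 8.19% that fell among all genes tested. A list's counts cover the members that passed the filter on low counts.

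**Figure D2:**
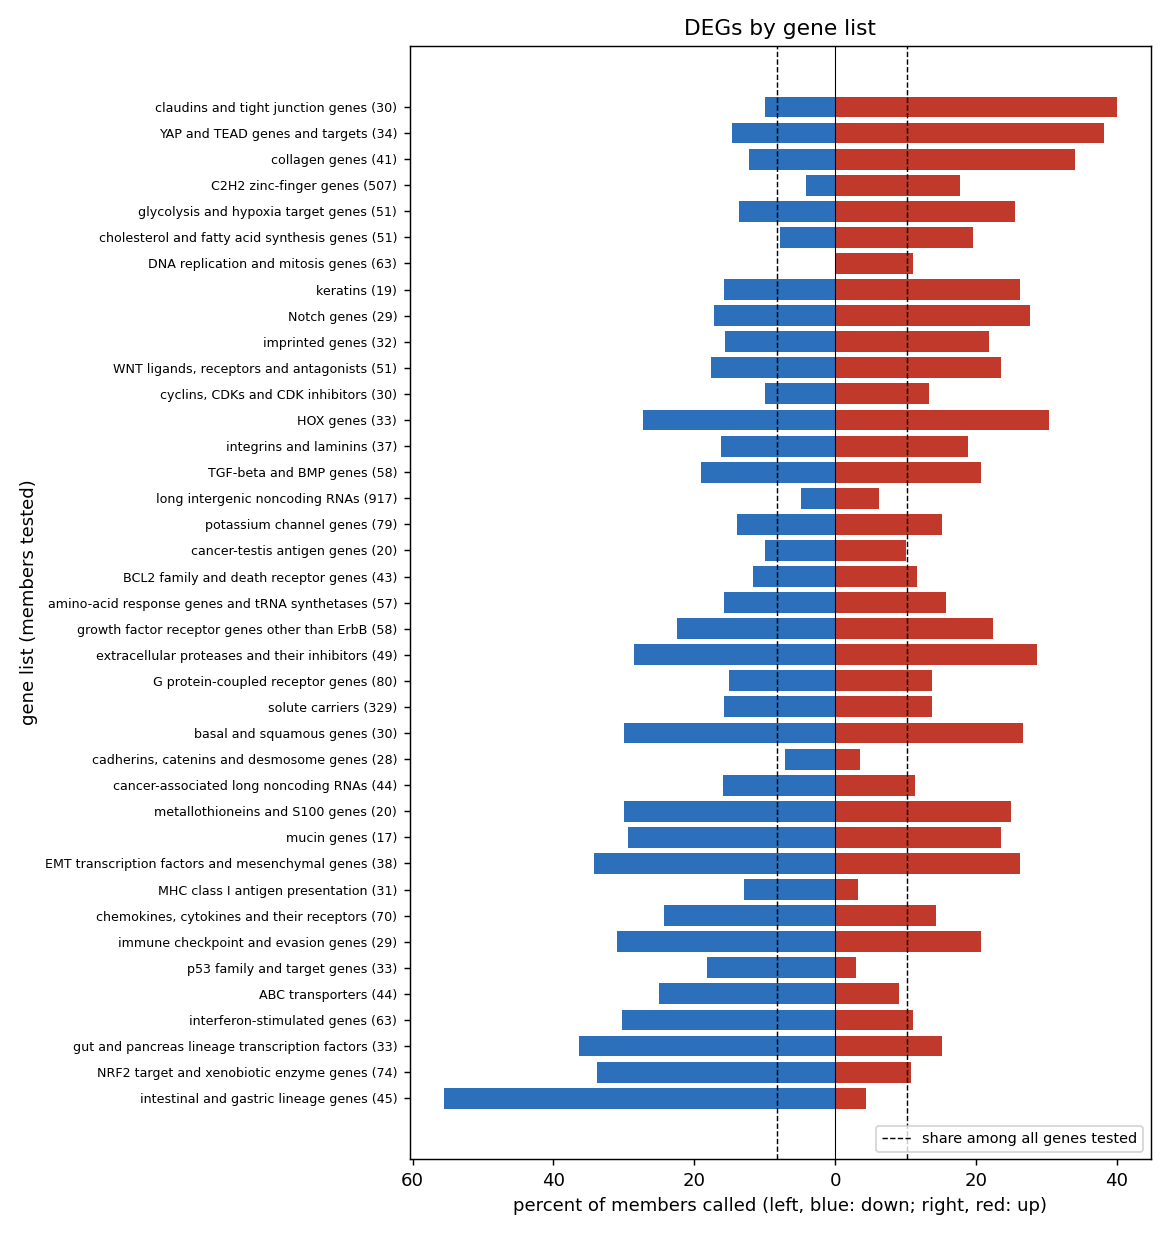
Percent of the tested members of each gene list that were DEGs, with those that fell in S2-028 to the left (blue) and those that rose to the right (red), ordered by the difference of these shares. Dashed lines mark the shares among all genes tested, 8.19% down and 10.2% up. Intestinal and gastric lineage genes reach furthest to the left (55.6%) and claudin and tight junction genes furthest to the right (40%).

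Genes of intestinal and gastric epithelium were mostly lower in S2-028. Of 59 listed genes 45 were tested, of which 25 fell (55.6%) and 2 rose (4.44%), with a median log2 fold change of -1.59. Those that fell included the microvillus scaffold gene USH1C, at 53.4, 55.4 and 55.4 CPM in S2-007 and at 2.92, 3.29 and 3.25 CPM in S2-028 (-4.12 ± 0.09 SE on the log2 scale, adjusted p = 2.55e-18). LYZ was at 335.2, 368.5 and 293.1 CPM against 2.27, 2.29 and 1.80 CPM (-7.29 ± 0.11, adjusted p = 1.22e-20), and 34.7% of its exon bases overlap another gene. The liver-intestine cadherin CDH17 went from 24.4 ± 5.39 to 0.159 ± 0.121 CPM (SD, n = 3) and was at 5.47 CPM in S2-020. The groups did not overlap for any of these genes. Villin itself, VIL1, was at 8.67 ± 0.61 CPM in S2-007 and 8.34 ± 0.62 CPM in S2-028 (adjusted p = 0.818), and 44.2% of its exon sequence overlaps another gene. The members that rose were TM4SF4, a tetraspanin relative (log2 fold change 3.72), and CA2, a carbonic anhydrase (1.13), named after their values were seen. When at least 10 counts in every library were asked for, which removes genes near 0 in a line, 15 falls were counted.

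The transcription factors of gut and pancreas moved in both directions, with 12 of 33 tested lower (36.4%) and 5 higher (15.2%). HNF4A (NCBI Gene 3172, chr20:44355699-44434596) was at 224.7, 224.2 and 238.9 CPM in S2-007 and at 27.1, 26.2 and 21.9 CPM in S2-028 (log2 fold change -3.19 ± 0.08 SE, adjusted p = 7.99e-18). Its paralog HNF4G fell by 2.29 ± 0.12 on the log2 scale. KLF5, a factor of dividing gut epithelium, fell from 569.5 ± 20.9 to 217.4 ± 10.5 CPM (SD, n = 3). CDX2, named after its values were seen, fell from 26.6 ± 0.94 to 9.57 ± 1.17 CPM. FOXA2, a pioneer factor of the endoderm, was at 2.86, 2.38 and 2.38 CPM in S2-007 and at 13.8, 13.5 and 13.3 CPM in S2-028 (2.41 ± 0.14, adjusted p = 1.02e-11), in the opposite direction to the HNF4 genes. GATA6, a marker of the classical PDAC subtype, was at 37.8 ± 2.39 CPM in S2-007 and 34.7 ± 2.66 CPM in S2-028, and its adjusted p was 0.308.

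**Figure D3:**
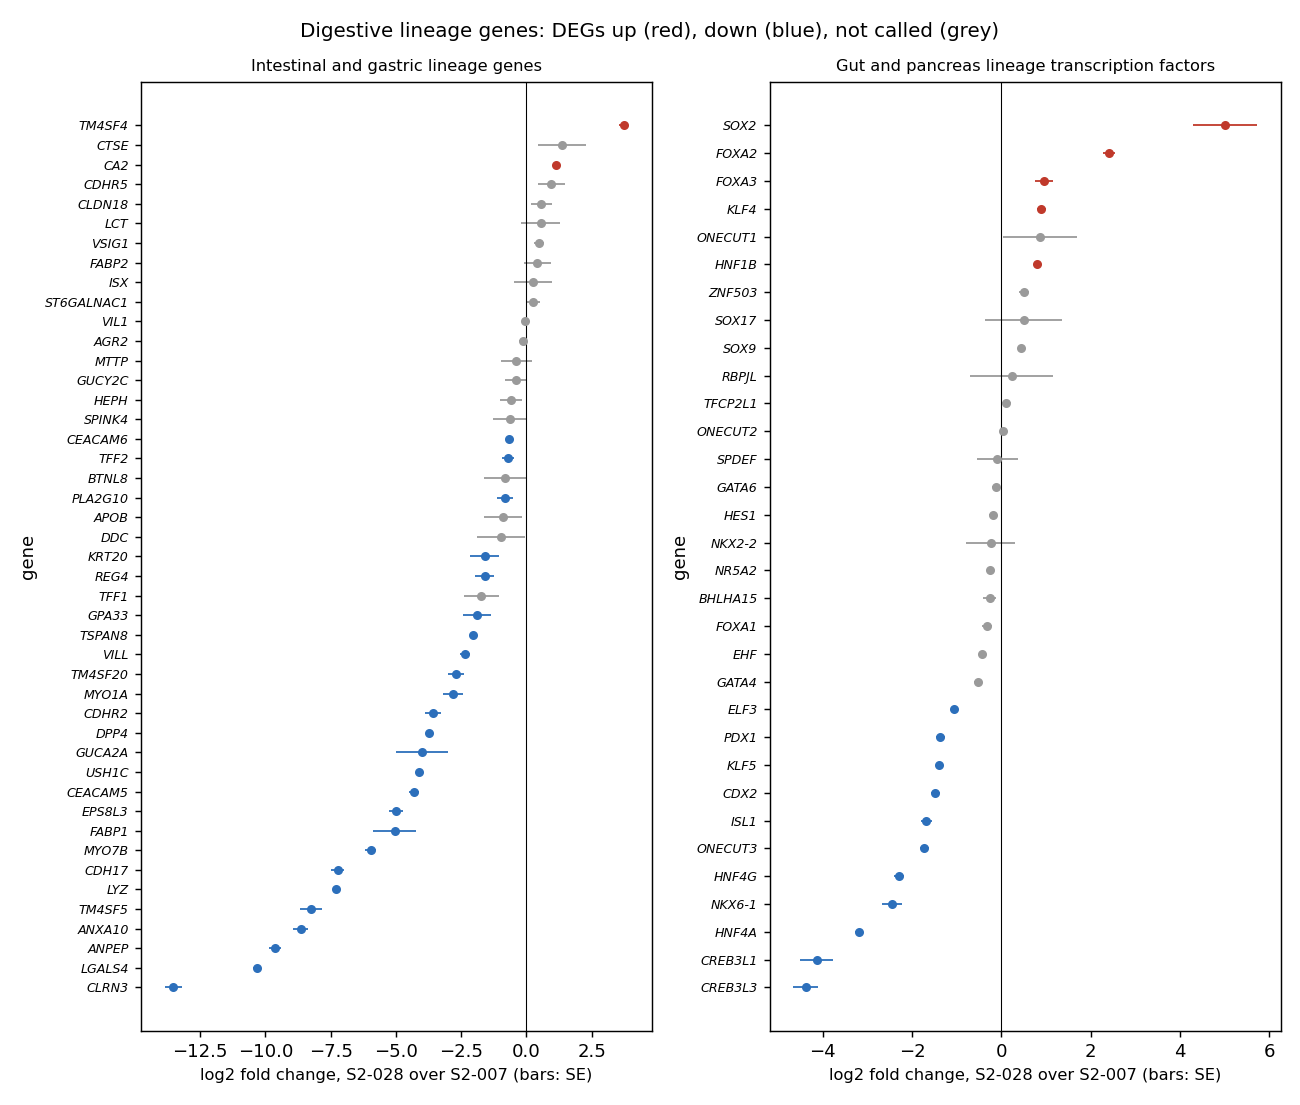
Log2 fold change (S2-028 over S2-007) with its standard error for the tested members of the intestinal and gastric list (left, 45 genes) and of the lineage transcription factors (right, 33 genes less 1 not shown), where red points rose, blue points fell and grey points were not DEGs. The left panel reaches down to CLRN3, whose fitted value rests on 0 counts in S2-028 and is no measured size, and the right panel spans -4.38 to 5.01.

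Several junction genes were higher in S2-028. Of 30 claudin and tight junction genes tested, 12 rose (40%) and 3 fell (10%), with a median log2 fold change of 0.41. CLDN2, which forms a cation pore, was at 129.4, 147.4 and 118.7 CPM in S2-007 and at 1638, 1614 and 1490 CPM in S2-028 (3.59 ± 0.08 SE, adjusted p = 1.23e-18). CLDN3 rose by 1.97 ± 0.10, CLDN7 by 1.27 ± 0.07, CLDN1 by 0.91 ± 0.07 and CLDN4 by 0.83 ± 0.07 on the log2 scale, while JAM3, an adhesion molecule of the junction with 35.6% of its exon sequence in the span of another gene's exons, fell by 3.36 ± 0.13. Asked whether the change was over 1.5-fold, 7 rises were left. Of 28 cadherin, catenin and desmosome genes, E-cadherin (CDH1) rose from 54.3 ± 2.43 to 112.5 ± 7.17 CPM (SD, n = 3), N-cadherin (CDH2) fell from 9.56 ± 1.92 to 1.21 ± 0.157 CPM, CDH17 fell, and the other 25 were not DEGs. In shares, 3.57% of that list rose and 7.14% fell. A further member of it rose when replicate 1 or replicate 3 of S2-028 was left out.

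Keratins are the intermediate filaments of epithelia. Of 39 keratin genes 19 were tested, with 5 rises (26.3%) and 3 falls (15.8%). KRT7, a duct keratin, was at 232.0, 221.2 and 260.8 CPM in S2-007 and at 895.0, 782.1 and 945.3 CPM in S2-028 (log2 fold change 1.88 ± 0.07 SE, adjusted p = 1.15e-14). KRT8 and KRT18, the pair of simple epithelia, rose by 0.82 ± 0.06 and 1.27 ± 0.06, with 19% and 29.4% of their words shared with other genes, and KRT19 was not a DEG (2123 ± 40.7 against 1934 ± 148 CPM). The basal keratins KRT5 and KRT14 were below 1 CPM in each of the 6 libraries. The 3 falls, of KRT9, KRT17 and KRT20 (named after their values were seen), all concerned genes below 1 CPM on average in S2-007, and 1 fall was left when S2-007 replicate 1, S2-007 replicate 2 or S2-028 replicate 3 was left out.

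The basal and squamous list was divided, with 8 rises (26.7%) and 9 falls (30%) among 30 genes tested of 48. TP63, the factor that defines squamous cells, was at 0.480 ± 0.237 CPM in S2-007 and 0.416 ± 0.149 CPM in S2-028 (SD, n = 3, adjusted p = 0.824). Members that rose included VGLL1 and CST6, a cystatin (4.21 ± 0.13 SE on the log2 scale). ANXA8 rose as well (2.51 ± 0.09), with 79.2% of its words in other genes. DHRS9 was the member with the largest fall.

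Mucins are the glycoproteins of mucus and of the apical surface. The gel-forming MUC5AC was at 3.37, 1.99 and 2.53 CPM in S2-007 and at 13.5, 11.2 and 7.74 CPM in S2-028 (log2 fold change 2.04 ± 0.21 SE, adjusted p = 5.66e-08), and MUC5B rose by 1.96 ± 0.30. The membrane mucin MUC13 was at 7.00, 7.04 and 6.41 CPM against 0.0322, 0.157 and 0.0984 CPM (-6.12 ± 0.31, adjusted p = 8.68e-13). Of 17 mucin genes tested, 4 rose (23.5%) and 5 fell (29.4%). MUC1 fell by 0.61 ± 0.16 (adjusted p = 0.0049), and its libraries overlapped between the lines, with the call lost without replicate 1 of S2-007 or replicate 3 of S2-028, with DESeq2 and in the test against a 1.5-fold change. MUC4 was below 1 CPM on average in both lines. Leaving out S2-007 replicate 1 gave 1 fall, leaving out S2-028 replicate 3 gave 2, and leaving out replicate 2 of either line gave 3.

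EMT regulators and mesenchymal genes moved in both directions: 10 rose (26.3%) and 13 fell (34.2%) of 38 tested. Vimentin (VIM), the mesenchymal intermediate filament, was at 1367, 1436 and 1599 CPM in S2-007 and at 392.9, 389.3 and 477.9 CPM in S2-028 (log2 fold change -1.80 ± 0.07 SE, adjusted p = 2.57e-14), and 24.6% of its exon sequence overlaps another gene. The EMT factor ZEB1 fell by 1.41 ± 0.09, and the contractile gene TPM2 by 2.02 ± 0.06. SNAI2 and FOXC2, further EMT factors named after their values were seen, fell from 14.5 to 0.539 CPM and from 4.19 to 0.108 CPM on average. In the other direction, the receptor tyrosine kinase AXL was at 132.9, 134.0 and 152.5 CPM in S2-007 and at 505.3, 482.9 and 559.6 CPM in S2-028 (1.89 ± 0.07, adjusted p = 3.58e-15). THBS2, a matricellular protein of stroma whose exon sequence overlaps another gene for 31.2%, was at 11.5, 12.6 and 10.7 CPM against 240.0, 236.6 and 251.2 CPM (4.39 ± 0.08, adjusted p = 5.26e-20), and NNMT, a methyltransferase, rose by 5.70 ± 0.15. The groups did not overlap in any of these. Fibronectin (FN1) rose by 2.19 ± 0.39 at a low level, 1.32 ± 0.078 CPM in S2-028 (SD, n = 3). The EMT factor SNAI1, also named after its values were seen, went against SNAI2, FOXC2 and ZEB1. It rose by 1.40 ± 0.39 at a low level, from 0.396 to 1.04 CPM on average.

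Laminins, the sheet-forming proteins of the basement membrane, changed in one direction, with 5 rises (45.5%) and 0 falls among 11 tested. This subset was taken from the list after values were seen. LAMA3 (log2 fold change 1.16 ± 0.07 SE), LAMB1 (from 169.6 to 367.1 CPM on average), LAMC1 (1.11 ± 0.06) and LAMB3 (1.06 ± 0.08, named after its values were seen) were among those that rose. LAMA3 and LAMB3 encode chains of the laminin on which epithelia rest. The integrin subunit ITGB4, part of its receptor, fell by 0.70 ± 0.05, and its partner ITGA6 was not a DEG (1085 ± 29.3 against 1064 ± 123 CPM, SD, n = 3). Among 26 integrin genes 2 rose (7.69%) and 6 fell (23.1%).

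Of 41 collagen genes tested, 14 rose (34.1%) and 5 fell (12.2%). COL18A1, a basement-membrane collagen, was at 71.3, 71.3 and 78.1 CPM in S2-007 and at 520.4, 538.1 and 512.0 CPM in S2-028 (log2 fold change 2.83 ± 0.06 SE, adjusted p = 1.20e-18). COL4A3 and COL4A4, which share a promoter region and encode chains of a specialised collagen IV, rose by 3.26 ± 0.23 and 3.50 ± 0.18. COL4A1, of the common collagen IV, was below 1 CPM in every library of both lines. COL17A1, the hemidesmosomal collagen, went the other way and fell from 919.9 ± 42.5 to 258.1 ± 14 CPM (SD, n = 3).

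Secreted and membrane proteases and their inhibitors moved in both directions, with 14 rises and 14 falls among 49 tested (28.6% each). Besides MMP1, the matrilysin gene MMP7 fell from 629.8 ± 7.08 to 126.5 ± 11.1 CPM (SD, n = 3), and MMP14, which activates other metalloproteinases at the membrane, was at 95.6, 96.8 and 103.2 CPM against 12, 10.1 and 11.7 CPM (log2 fold change -3.12 ± 0.08 SE, adjusted p = 1.71e-17). The plasminogen activators went in opposite directions. PLAU, the urokinase gene, was at 391.9, 375.2 and 457.0 CPM in S2-007 and at 2797, 2331 and 2966 CPM in S2-028 (2.73 ± 0.08, adjusted p = 1.90e-16), and 31% of its exon bases overlap another gene. PLAT, the tissue-type activator, was at 351.4, 318.3 and 272.9 CPM against 10.6, 10.3 and 6.07 CPM (-5.13 ± 0.15, adjusted p = 1.31e-16). Neither gene's groups overlapped.

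WNT signals act through Frizzled receptors and are boosted by the R-spondin receptors LGR4 to LGR6. Of 51 tested genes of this list 12 rose (23.5%) and 9 fell (17.6%). LGR5, a stem-cell marker of the gut, was at 30.1, 34.8 and 36.5 CPM in S2-007 and at 3.16, 3.85 and 3.40 CPM in S2-028 (log2 fold change -3.28 ± 0.11 SE, adjusted p = 1.76e-15), and LGR6 fell by 3.52 ± 0.15. The receptor gene FZD7 was at 9.69, 8.53 and 10.0 CPM against 63.5, 58.5 and 57.8 CPM (2.67 ± 0.09, adjusted p = 6.00e-16), and ROR1, a receptor for WNT5A, rose by 2.06 ± 0.08. The target gene AXIN2, of whose words 25% occur in other genes, was at 4.26 ± 1.13 CPM in S2-007 and 4.81 ± 0.670 CPM in S2-028 (SD, n = 3, adjusted p = 0.576).

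In the TGF-beta and BMP list 12 genes rose (20.7%) and 11 fell (19%) of 58 tested. The ligands BMP4 and BMP7 fell, BMP4 from 248.8, 265.2 and 250.5 CPM to 52.0, 62.3 and 55.0 CPM (log2 fold change -2.17 ± 0.07 SE, adjusted p = 4.48e-16) and BMP7 by 2.03 ± 0.06. TGFB2 rose by 2.79 ± 0.15, although 34.2% of its exon sequence overlaps another gene. The BMP targets differed: ID2 rose by 2.39 ± 0.12, from 3.60 ± 0.35 to 18.9 ± 1.38 CPM (SD, n = 3), while ID1 and SMAD6, named after their values were seen, fell by 1.14 ± 0.07 and 0.69 ± 0.07, ID1 from 132.2 ± 6.61 to 59.8 ± 3.20 CPM. The activin antagonist FSTL3 fell by 2.93 ± 0.13. SMAD4 was below 1 CPM in every library of both lines, at means of 0.642 and 0.754 CPM, and 0.709 CPM in S2-020. Of 29 Notch genes 8 rose (27.6%) and 5 fell (17.2%). The receptor NOTCH3 was at 0.708, 0.847 and 1.24 CPM against 12.7, 12.6 and 8.35 CPM (3.60 ± 0.21, adjusted p = 1.46e-11). NOTCH1 fell by 1.31 ± 0.07 and the ligand JAG1 by 0.81 ± 0.13, of which the JAG1 call was lost in the test against a 1.5-fold change.

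Growth factor receptors and ligands outside the ErbB family divided evenly, with 13 rises and 13 falls among 58 tested (22.4% each). FGFR1 was at 16.7, 18.1 and 22.1 CPM in S2-007 and at 350.8, 369.1 and 350.2 CPM in S2-028 (log2 fold change 4.24 ± 0.08 SE, adjusted p = 3.10e-19), and FGFR2 rose by 2.81 ± 0.20. IGF1R rose by 1.18 ± 0.08 and VEGFA, the angiogenic ligand, by 1.83 ± 0.08. KITLG, the ligand of KIT, fell from 441.3 ± 25.5 to 162.7 ± 2.61 CPM (SD, n = 3), and PDGFA fell by 2.88 ± 0.09. MET was lower by 0.47 ± 0.06 on the log2 scale, which is under the size asked of a DEG.

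YAP and its partners TEAD carry mechanical and growth signals into the nucleus, and VGLL1 competes for the same TEAD surface. Of 34 tested genes of this list 13 rose (38.2%) and 5 fell (14.7%). AMOT, an angiomotin that holds YAP outside the nucleus, was at 1.68, 2.15 and 1.33 CPM in S2-007 and at 91.6, 103.2 and 88.4 CPM in S2-028 (log2 fold change 5.78 ± 0.12 SE, adjusted p = 1.04e-18). The widely used targets CCN1 and CCN2 rose by 1.09 ± 0.06 and 1.41 ± 0.12, and TEAD1 by 0.77 ± 0.06. IGFBP3, also counted as a target, fell by 2.91 ± 0.11.

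Interferon-stimulated genes were lower in 19 (30.2%) and higher in 7 (11.1%) of 63 tested. IFI27 was at 64.3, 66.1 and 67.0 CPM in S2-007 and at 2.93, 2.33 and 2.33 CPM in S2-028 (log2 fold change -4.70 ± 0.10 SE, adjusted p = 1.23e-18), and OAS1, which senses double-stranded RNA, fell by 2.31 ± 0.08. Of 6 guanylate-binding protein genes, a subset taken after values were seen, 4 fell (66.7%) and 0 rose. GBP2 was at 43.9, 45.5 and 38.0 CPM against 2.10, 2.26 and 2.18 CPM (-4.28 ± 0.11, adjusted p = 3.12e-17), and GBP1 fell by 5.77 ± 0.23, each with over 10% of its words in other genes. ISG15, a ubiquitin-like modifier, rose by 0.77 ± 0.09, a call lost in the test against a 1.5-fold change.

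For MHC class I antigen presentation, 4 genes fell (12.9%) and 1 rose (3.23%) of 31 tested, against 8.19% and 10.2% of all genes tested. B2M, the light chain of class I, went from 647.6 ± 23.8 to 314.4 ± 14.9 CPM (SD, n = 3, log2 fold change -1.04 ± 0.06 SE, adjusted p = 4.96e-12), and HLA-F, with 28% of its exon sequence overlapping another gene, fell by 1.78 ± 0.15. Among 29 checkpoint and immune evasion genes, 9 fell (31%) and 6 rose (20.7%). CD55, which blocks complement on the cell surface, was at 194.3, 254.3 and 234.1 CPM in S2-007 and at 16.5, 13.6 and 16.1 CPM in S2-028 (-3.88 ± 0.10, adjusted p = 9.55e-18). CEACAM1 fell by 4.42 ± 0.14 and CD47, the signal against phagocytosis, by 0.88 ± 0.07. CD274, which encodes PD-L1, rose by 1.55 ± 0.33 from 0.557 ± 0.090 to 1.63 ± 0.551 CPM.

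Chemokine, cytokine and receptor genes fell in 17 (24.3%) and rose in 10 (14.3%) of 70 tested. TNFSF15, a ligand of the tumor necrosis factor family, was at 218.1, 224.8 and 211.0 CPM in S2-007 and at 40.9, 50.7 and 35.8 CPM in S2-028 (log2 fold change -2.36 ± 0.09 SE, adjusted p = 1.05e-14), and IL18 fell by 1.63 ± 0.08. CXCL8 fell by 2.11 ± 0.32 from a low level of 1.81 ± 0.43 CPM (SD, n = 3). IL6ST, the shared receptor subunit gp130, rose by 1.03 ± 0.06. IL6 and IL1A stayed below 1 CPM in every library of both lines.

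Some enzymes that reduce carbonyls and dispose of foreign compounds, many under the factor NRF2, were lower in S2-028. Of 74 tested genes of this list 25 fell (33.8%), 8 rose (10.8%) and 41 were not DEGs, with a median log2 fold change of -0.28. AKR1C3, a ketosteroid reductase, was at 116.7, 146.1 and 152.0 CPM in S2-007 and at 3.45, 6.24 and 4.20 CPM in S2-028 (-4.90 ± 0.14 SE, adjusted p = 1.18e-16). ALDH3A1 fell by 3.76 ± 0.13, and AKR1B10 and AKR1C1, which share 31.5% and 31.8% of their words with other genes, by 3.69 ± 0.12 and 3.70 ± 0.15. FTH1, the ferritin heavy chain, fell by 1.62 ± 0.05, but 63.2% of its exon sequence overlaps other genes. NQO1, the most often used target of NRF2, was at 282.3 ± 39.6 CPM in S2-007 and 246.8 ± 20.6 CPM in S2-028 (SD, n = 3, adjusted p = 0.0671).

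Metallothioneins bind zinc and copper, and their genes lie side by side on chromosome 16. Of 7 tested, MT1L included, 6 rose (85.7%) and 0 fell, a subset taken after values were seen. MT2A was at 25.3, 24.9 and 28.8 CPM in S2-007 and at 473.6, 447.6 and 532.3 CPM in S2-028 (log2 fold change 4.21 ± 0.08 SE, adjusted p = 1.62e-19), and MT1E rose by 2.93 ± 0.10, with 12.7% and 15.6% of their words in other genes. Of 15 S100 genes, which encode calcium-binding proteins, 6 fell (40%) and 0 rose. S100A10 went from 508.6 ± 18 to 224.3 ± 18.9 CPM (SD, n = 3) and S100P from 1.72 ± 0.19 to 0.0539 ± 0.067 CPM.

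In the lists of lipid and of sugar metabolism more genes rose than fell. Of 51 cholesterol and fatty acid genes, all of which passed the filter, 10 rose (19.6%) and 4 fell (7.84%). The fatty acid elongases ELOVL7 and ELOVL2 rose by 2.36 ± 0.10 and 2.23 ± 0.16 on the log2 scale. Fatty acid synthase (FASN) was at 628.2 ± 39.0 and 616.2 ± 31.5 CPM (SD, n = 3, adjusted p = 0.813), and the desaturase SCD fell by 0.82 ± 0.08. Of 51 glycolysis and hypoxia genes 13 rose (25.5%) and 7 fell (13.7%). The glucose transporter SLC2A3 rose by 4.55 ± 0.24, with 27.8% of its words in other genes, DDIT4 rose by 2.02 ± 0.11, and CA12 fell by 2.35 ± 0.11. LDHA was at 1840 ± 103 and 1776 ± 81.4 CPM (adjusted p = 0.569). Amino-acid response genes and tRNA synthetases rose in 9 and fell in 9 of 57 tested (15.8% each). Those that rose included SHMT2, of mitochondrial one-carbon metabolism (1.38 ± 0.07), and TRIB3 (1.70 ± 0.09), and 5 falls were left without replicate 2 of S2-028.

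Genes of DNA replication and mitosis differed little in size. Of 63 tested, 7 rose (11.1%, near the 10.2% of all genes tested) and 0 fell, and the median log2 fold change was 0.15. The helicase loading factor CDC6 was at 71.7, 79.7 and 80.5 CPM in S2-007 and at 147.9, 139.2 and 157.1 CPM in S2-028 (0.94 ± 0.07 SE, adjusted p = 1.77e-10). MCM2, with 23.6% of its exon sequence overlapping another gene, rose by 0.99 ± 0.07 and thymidine kinase TK1 by 0.91 ± 0.06. The proliferation marker MKI67 was at 1015 ± 30.9 CPM in S2-007 and 920.4 ± 18.3 CPM in S2-028 (SD, n = 3), which is under the size asked of a DEG. Of 30 cyclins, CDKs and CDK inhibitors tested, 4 rose (13.3%) and 3 fell (10%), near the shares over all genes tested. Among kinases that pass cells from G1 to S, CDK6 rose from 69.2 ± 6.89 to 192.1 ± 10.6 CPM. CDK4 rose by 1.89 ± 0.07, and 44.2% of its exon sequence overlaps another gene. CDK2, named after its values were seen, rose by 1.00 ± 0.07. The inhibitors CDKN1A and CDKN2C fell by 1.42 ± 0.09 and 1.88 ± 0.10, while CCND1 was not a DEG (adjusted p = 0.136). For CDKN2C, 20.4% of the exon sequence overlaps another gene. CDKN1A is also a target of p53, and in the list of p53 family and target genes 6 fell (18.2%) and 1 rose (3.03%) of 33 tested. MDM2 was 0.23 lower on the log2 scale and not a DEG.

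HOX genes, which set position along the body axis and lie in 4 clusters, differed in direction between clusters. Of 33 tested, 10 rose (30.3%) and 9 fell (27.3%). In the HOXC cluster on chromosome 12, 6 of 9 tested fell (66.7%) and 0 rose, with a median log2 fold change of -2.93. In the HOXB cluster 4 of 9 rose (44.4%) and 0 fell. This division by cluster was made after values were seen. HOXC8 was at 6.50, 6.34 and 7.27 CPM in S2-007 and at 0.500, 0.627 and 0.820 CPM in S2-028 (-3.36 ± 0.22 SE, adjusted p = 5.04e-11). HOXC5 fell by 7.00 ± 0.53, but 66.8% of its words occur in other genes, since HOXC transcripts overlap. HOXB9 rose by 1.63 ± 0.11. In the HOXA cluster 5 of 9 rose, and HOXA13, at its end, was at 65.1, 68.7 and 57.1 CPM against 5.06, 6.16 and 3.59 CPM (-3.68 ± 0.13, adjusted p = 4.03e-15). The neighbouring noncoding RNA HOTTIP, with 20.1% of its exon sequence overlapping another gene, fell too, by 4.05 ± 0.19. In S2-020 the mean level of HOXC8 was 7.21 CPM and that of HOXA13 9.77 CPM.

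**Figure D4:**
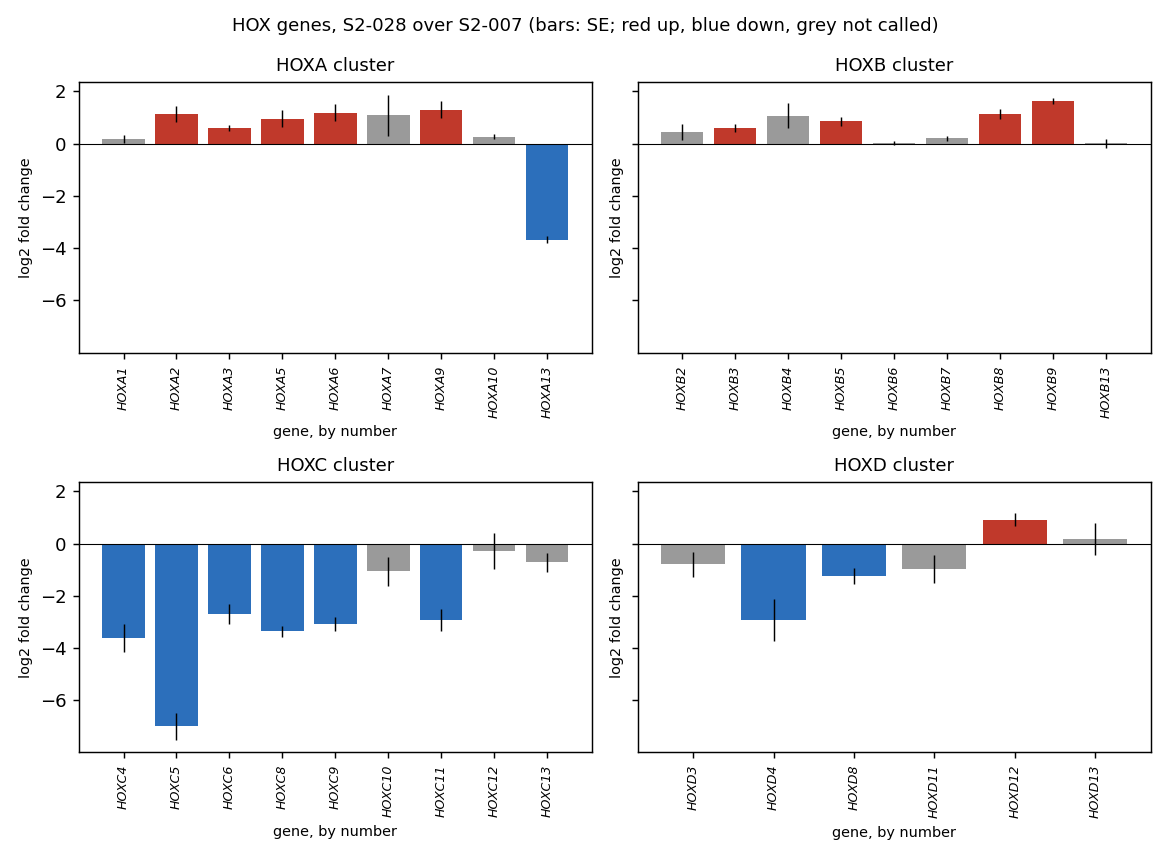
Log2 fold change (S2-028 over S2-007) with its standard error for the tested genes of the 4 HOX clusters, in order of gene number, where red bars rose, blue bars fell and grey bars were not DEGs. Bars of the HOXC cluster all point down, those of the HOXA cluster point up except HOXA13, and the bars for HOXB6 and HOXB13 are near 0.

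Many zinc-finger genes of the C2H2 kind, most of them repressors, lie in arrays on chromosome 19. Their list was taken by ZNF symbol, so not every member need be of that kind. Of 507 tested, 90 rose (17.8%) and 21 fell (4.14%). Split after values were seen, 66 of the 247 on chromosome 19 rose (26.7%) against 24 of the 260 elsewhere (9.23%), and 15% of the other genes of chromosome 19 rose. ZNF280C, named for its adjusted p in the whole list and not as an example of the chromosome 19 group, was at 6.15, 7.15 and 7.28 CPM in S2-007. In S2-028 it was at 23.1, 19.1 and 20.3 CPM (log2 fold change 1.61 ± 0.11 SE, adjusted p = 2.63e-10). Asked whether the change was over 1.5-fold, 31 of the 90 rises were counted.

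The share of DEGs differed between chromosomes. On chromosome 13, 138 of 507 genes tested fell (27.2%, against 8.19% over all genes) and 17 rose, and the median log2 fold change of all its tested genes was -0.35. On the X chromosome 203 of 820 rose (24.8%, against 10.2%) and 44 fell, with a median of 0.18. Chromosome 22 had 19.4% and chromosome 19 had 16.9% of its tested genes higher, and chromosome 3 had 14.5%. Among genes described in this report, CDX2 lies on chromosome 13, as does ABCC4, which rose. VGLL1, GPC3, ESX1, CLDN2 and AMOT lie on X, as do MAGED4 and MAGED4B, which fell. These are examples and not a full list. Copy number was not measured in these libraries, and its part in the counts was not tested.

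**Figure D5:**
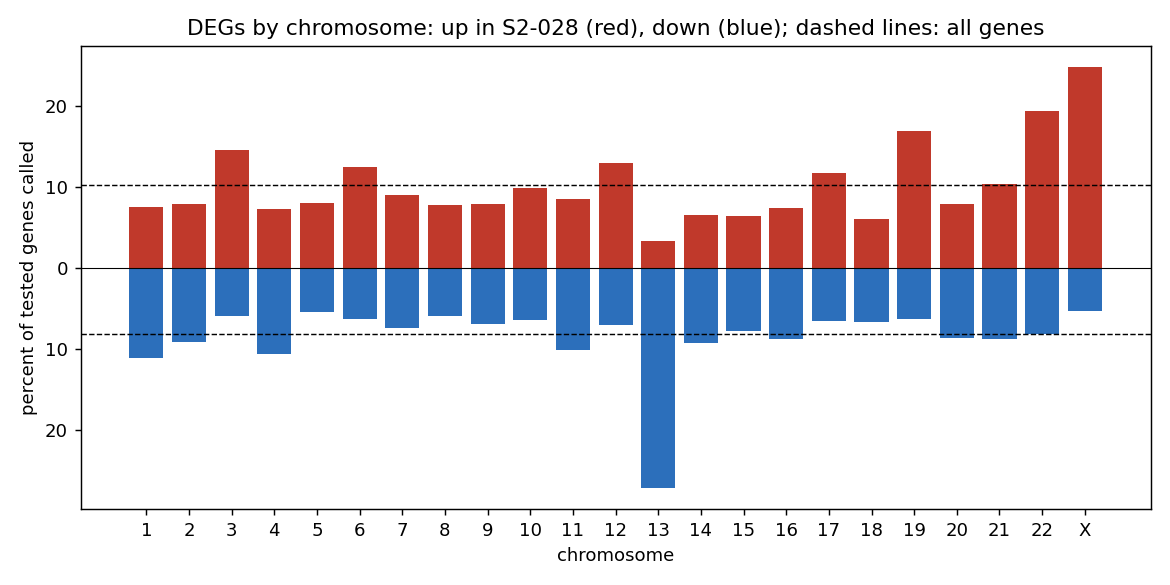
Percent of the tested genes of each chromosome that rose (red, upward) or fell (blue, downward) in S2-028, with dashed lines at the shares over all genes tested (10.2% and 8.19%). Chromosome 13 has the deepest blue bar, 27.2%, and the X chromosome the highest red bar, 24.8%.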

How the data were processed

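RNA-seq of poly(A) RNA from cultured S2-007, S2-028 and S2-020 cells (3 strand-specific NovaSeq libraries per line) was used as the authors deposited it. The authors trimmed reads with Trimmomatic 0.39 and aligned them with BWA 0.7.17 to GRCh38.p14. The submitters' processing notes also name SAMtools 1.12 and edgeR 3.16.5, and the study's methods give another edgeR version. The counting tool and its handling of strand and multiply mapped reads are not given in the sources used here, and BWA does not join reads across introns. The authors deposited a count of mapped reads per gene (42717 genes), analysed here, and 18 columns of normalized signal, not used. The 2 lines without a gene, a total and a scale factor, were dropped. Libraries were grouped by their titles, and 99.6% of gene identifiers matched RefSeq, the source of coordinates and promoter windows.

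Counts of the 3 S2-028 and 3 S2-007 libraries were filtered with filterByExpr (minimum count 10, total 15), scaled by TMM and compared by the quasi-likelihood F-test in edgeR 4.0.16 in R 4.3.3, without a block, since the numbers did not pair the libraries. Genes of adjusted p below 0.05 and a change of 1.5-fold or more were DEGs. The study's text names a likelihood ratio test, run as an alternative with DESeq2 1.42.0, RLE normalization, other filters, all 9 libraries, a test against a 1.5-fold change, a replicate block and each library left out. CPM values use TMM factors over 9 libraries. The biological coefficient of variation was 0.159. A gene's floor was set at 3 counts per library, in compared libraries of 60328748 to 75136834 total counts. The step was tested on simulated data.

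The comparison, its members and the 39 gene lists were chosen with earlier results of these data known. Named genes were the 12 of largest log2 fold change in each direction with a mean of at least 10 CPM in the higher line and no overlap, up to 4 DEGs of lowest adjusted p and set anchor genes per list, and the 5 highest genes at the floor in each line. Exceptions are marked in the text. Sharing of sequence was scored from 31-base words of GENCODE 44 transcripts, and overlap of exons without regard to strand. These scores are printed for some of the named genes only. Some genes are not reported here.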

Additional observations from a re-analysis of the deposited data

How the results depend on the processing

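Over 14 alternatives, no named gene that was a DEG in the main fit or in the alternative changed sign. Some named genes that were not DEGs did. With each library left out, the log2 fold change of AXIN2 lay between -0.0165 and 0.3509 and that of FASN between -0.0618 and 0.0126. DEGs numbered 2697 up and 2161 down, and under a test against a 1.5-fold change 1674 and 1303. The counts were 2828 and 2313 with the likelihood ratio test, 2670 and 2224 with DESeq2, and 2692 and 2173 with the replicate number as a block. That block changed no call of a named gene. The correlations of same-numbered libraries were -0.0171, -0.0011 and -0.0035, so the numbers do not pair the libraries.

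Testing against a 1.5-fold change by its construction left fewer calls. Up, it left 7 tight junction, 5 Notch, 0 MHC class I, 3 HOX, 31 zinc-finger, 30 LINC and 3 cancer-associated noncoding genes. Down, it left 1 keratin, 1 mucin, 2 Notch, 3 YAP and TEAD, 2 MHC class I, 4 glycolysis and hypoxia, 5 amino-acid response, 2 p53, 1 BCL2 family, 1 cancer-testis, 7 zinc-finger, 21 LINC and 2 cancer-associated noncoding genes. By chromosome, 120 genes up and 57 down were left on chromosome 3, 11 and 91 on 13, 134 and 56 on 19, 83 and 28 on 22, and 19 down on X. Asking for at least 10 counts in every library, which removes genes near 0 in a line, left 15 intestinal and gastric, 0 keratin, 1 cadherin and 5 HOX genes down, and 5 basal and 1 cancer-testis gene up. Genes at the floor cannot be counted under that filter.

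Leaving out each library in turn gave 2 to 4 genes at the floor in S2-007 and 8 to 13 in S2-028, 1 to 2 keratins down, 1 to 2 cadherins up, 1 to 5 mucins down, 5 to 10 amino-acid response genes down, 1 to 2 cancer-testis genes down and 4 to 6 cancer-associated noncoding genes down. Among named genes, 25 calls were lost over all alternatives (MUC1, MUC4 and PIWIL2 under several, and under the test against a 1.5-fold change also BIK, CASP4, GADD45A, ISG15, JAG1, MICB, OCLN, PSMB10, S100A4 and TP53I3), and ALDH1A1, not a DEG, became one without replicate 2 of S2-028 (adjusted p 0.0154), at under 1 CPM. RLE normalization moved the median of all genes by -0.01 on the log2 scale. Genes below about 1 CPM carried SEs of up to 1.14 and could not be sized at this depth.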

Other observations

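Transporters and channels of the cell surface differed in many single genes. Of 329 solute carrier genes tested, 45 rose (13.7%) and 52 fell (15.8%) in S2-028, against 10.2% and 8.19% of all genes tested. SLC15A1, the peptide transporter of the gut, was at 176.5, 199.7 and 217.5 CPM in S2-007 and at 9.07, 9.93 and 10.5 CPM in S2-028 (log2 fold change -4.33 ± 0.08 SE, edgeR adjusted p = 2.13e-19), and SLC37A1 fell by 2.47 ± 0.08. SLC12A2, which brings sodium, potassium and chloride into cells, was at 47.2, 47.2 and 52.7 CPM against 260.3, 270.5 and 222.5 CPM (2.36 ± 0.07, adjusted p = 3.96e-16), and SLC16A6 rose by 4.59 ± 0.13. The groups did not overlap in these genes. Of 44 ABC transporters 4 rose (9.09%) and 11 fell (25%). The drug efflux pumps ABCB1, ABCG2 and ABCC1 fell by 3.70 ± 0.24, 2.41 ± 0.14 and 1.06 ± 0.07, whereas ABCC4 rose by 1.40 ± 0.06. Among 79 potassium channel genes 12 rose (15.2%) and 11 fell (13.9%). KCNQ3, of the neuronal M current, was at 116.3, 132.0 and 121.8 CPM against 5.19, 7.27 and 4.35 CPM (-4.46 ± 0.12, adjusted p = 4.45e-17), and the accessory subunits KCNE3 and KCNMB4 rose by 2.98 ± 0.11 and 2.94 ± 0.11. Of 80 receptors with GPR and ADGR symbols 11 rose (13.8%) and 12 fell (15%), with ADGRG1 going from 28.4 ± 1.25 to 145.2 ± 9.84 CPM (SD, n = 3) and GPRC5A from 892.9 ± 29.9 to 401.9 ± 43.7 CPM.

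Imprinted genes, expressed from one parental copy, rose in 7 (21.9%) and fell in 5 (15.6%) of 32 tested. PEG10 was at 47.4, 44.7 and 51.8 CPM in S2-007 and at 399.6, 392.2 and 430.2 CPM in S2-028 (log2 fold change 3.09 ± 0.07 SE, adjusted p = 1.75e-18), and PPP1R9A, its near neighbour on chromosome 7, rose by 2.29 ± 0.10. IGF2 was at 1077 ± 61.5 and 1081 ± 55.7 CPM (SD, n = 3, adjusted p = 0.942), with 44.4% of its exon bases under another gene. Of 107 cancer-testis antigen genes, 20 were tested, of which 2 rose (10%), among them PRAME (0.90 ± 0.10), and 2 fell (10%), TEX15 and PIWIL2. The PIWIL2 call was lost without any one library other than replicate 2 of S2-028. Of 917 tested genes with LINC symbols 57 rose (6.22%) and 45 fell (4.91%), shares below those over all genes. Of 44 cancer-associated long noncoding RNAs 5 rose (11.4%) and 7 fell (15.9%). UCA1 was at 61.5, 54.4 and 46.4 CPM against 342.1, 390.3 and 320.8 CPM (2.70 ± 0.09, adjusted p = 1.84e-15) and at 0.0745 CPM in S2-020, and 27.9% of its exon sequence overlaps another gene. In the BCL2 and death receptor list 5 rose and 5 fell of 43 tested (11.6% each), near the 10.2% and 8.19% of all genes tested. BID, which links death receptors to mitochondria, rose by 1.40 ± 0.06. BCL2L1, with 41.3% of its exon sequence overlapping another gene, was at 567.2 ± 59.5 and 531.5 ± 31.7 CPM (adjusted p = 0.345).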
